A study of Mus musculus with 6 samples.

Results

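The non-clustered cadherin superfamily was described in the apical tissue of the root furcation of the mouse first molar, in control and Lhx6-/- animals. The members follow from their symbols alone, although the family was picked with earlier results of these data known. They are the genes whose symbol is Cdh, Pcdh, Dsc, Dsg, Fat, Dchs or Celsr with a number: the classical and other cadherins, the non-clustered protocadherins, the desmosomal desmocollins and desmogleins, the Fat and Dachsous giants, and the flamingo cadherins. This gave 49 of the 23594 genes of the table. Of these, 45 passed the filter on low counts and were among the 20114 genes tested, and Cdh7, Cdh8, Cdh26 and Dsg1c were too low to be tested.

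Cadherins are transmembrane proteins whose extracellular cadherin repeats bind calcium and hold neighbouring cells together. Classical cadherins bind mostly to their own kind and are tied to actin by beta-catenin and alpha-catenin. Desmocollins and desmogleins pair across the desmosome and are tied to keratin filaments by plakoglobin, plakophilins and desmoplakin. Protocadherins adhere more weakly and act in cell sorting and migration, whereas Fat, Dachsous and Celsr proteins signal the polarity of cells in a tissue plane. In tooth development, E-cadherin, P-cadherin and desmosomes belong to the dental epithelium, including the root sheath, and N-cadherin and cadherin-11 to mesenchymal cells and odontoblasts.

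RNA was sequenced from 3 Lhx6-/- and 3 control libraries of C57BL/6 mice at postnatal day 4.5, when root formation begins. The controls are labelled wild type and were littermates of the mutants, and each library combined laser-captured tissue of 8 mandibular first molars. Lhx6 encodes a LIM homeodomain transcription factor of the dental mesenchyme, and Lhx6-/- mice in the study carry 2 copies of a CreER knock-in that disrupts the gene in every cell. How many animals stand behind a library was not stated, so p-values measure only the spread between these pooled samples. The question of the comparison was which genes differ in the furcation tissue when Lhx6 is lost.

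Library totals ran from 60132323 to 76157433 estimated counts, and levels are given as counts per 1000000 (CPM). Lhx6 itself was at 27.8, 18.2 and 21.9 CPM in the control and 12.8, 9.82 and 10.5 CPM in the Lhx6-/- libraries, so every mutant library lay below every control library, as labelled. The defining genes of dental mesenchyme were present in all libraries, with Prrx1 at 78.9 to 95.2 CPM and Vim at 962 to 1079 CPM. Enamel organ was captured as well. The sum over 6 ameloblast genes was 135390, 138020 and 145190 CPM in the control and 128220, 114830 and 146230 CPM in the mutant libraries. That over 9 dental epithelium genes was 998, 1546 and 1078 CPM in the control and 692, 747 and 805 CPM in the mutant libraries. The pools also differed in the summed level of 4 Y-linked genes, at 14.6 to 58.0 CPM in the control and 55.1 to 92.1 CPM in the Lhx6-/- libraries, and Xist was at 792, 411 and 628 CPM in the control and 289.7, 0.2304 and 0.05304 CPM in the Lhx6-/- libraries. The labels do not give the sexes in each pool, and a fit with the Y-linked level as a covariate is among the alternatives. Sums over neuronal genes (6 genes, 6.05 to 9.34 CPM) and immune genes (5 genes, 267 to 312 CPM) overlapped between genotypes, as did that over 7 muscle genes (690.2 to 1200 CPM). That over 5 osteoblast genes (6397 to 6806 CPM) overlapped as well. The sum over 3 odontoblast genes did not, at 5512, 5040 and 5013 CPM in the control and 6170, 6251 and 6731 CPM in the Lhx6-/- libraries. Most of it was Dspp (log2 fold change 0.33, adjusted p = 0.199). The part of odontoblast content in the values below was not tested.

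The furcation tissue expressed a small number of cadherins far above the others. Per kb of exon, the highest in control were Fat1 at 28.8 ± 1.499 CPM per kb (SD over 3 libraries, as for the next values), Cdh11 at 26.2 ± 0.391, Cdh2 at 26.1 ± 0.423, Cdh5 at 20.4 ± 0.723 and Celsr1 at 15.2 ± 0.556. Cdh11 and Cdh2 differed by less than their spread, while Fat1 stood above them and Cdh5 and Celsr1 below by more than the sum of both SDs. Fat1 is a very large atypical cadherin that organises actin at cell contacts, Cdh11 is the cadherin of osteoblasts and connective tissue fibroblasts, Cdh2 is N-cadherin, Cdh5 is the VE-cadherin of blood vessels, and Celsr1 is a core component of planar cell polarity. Next came Cdh3 at 10.9 ± 1.202, Cdh1 at 10.5 ± 2.49, Pcdh18 at 9.16 ± 0.383, Dchs1 at 8.88 ± 1.31 and Dsc3 at 8.05 ± 1.96 CPM per kb, and these neighbours were not separated beyond their spread. At the other end, 7 members (Cdh7, Cdh8, Cdh12, Cdh26, Dsg1c, Pcdh15 and Celsr3) were below 0.05 CPM per kb in control.

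**Figure D1:**
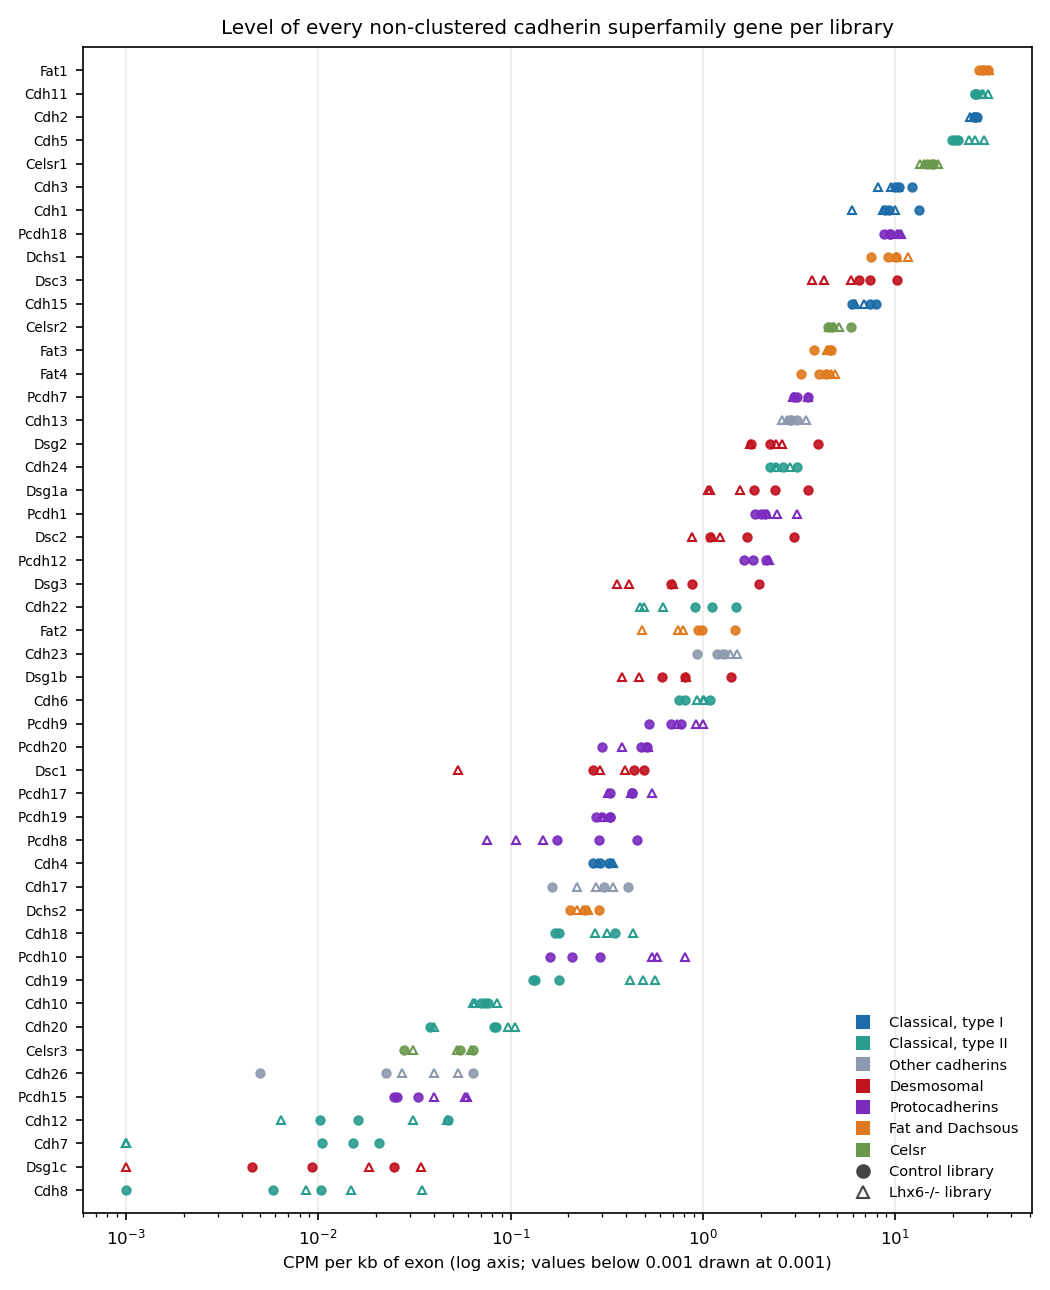
Level of all 49 members in CPM per kb of exon on a log axis, with 3 control libraries (filled circles) and 3 Lhx6-/- libraries (open triangles) per gene, coloured by class and sorted by the control mean. Fat1, Cdh11 and Cdh2 sit at the top with both genotypes together, whereas the triangles of Cdh19 and Pcdh10 lie to the right of their circles and those of Cdh22 and Pcdh8 to the left.

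At the thresholds of the study (1.5-fold or more, and an unadjusted p under 0.05), 10 of the 45 tested members (22.2%) met the rule, beside 3.28% of all tested genes. Pcdh10, Cdh19 and Pcdh15 were higher in Lhx6-/- tissue, 3 members beside 1.58% of all genes in that direction. Cdh22, Pcdh8, Fat2, Dsg1a, Dsg3, Dsc2 and Dsc3 were lower, 7 members beside 1.71% of all genes. After Benjamini-Hochberg adjustment over all tested genes, Pcdh10 and Cdh19 remained under 0.05, beside 0.403% of all genes, and the other 8 did not.

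An unadjusted p under 0.05 alone was reached by 17 of the 45 members, beside 9.81% of all tested genes. The libraries of the genotypes did not overlap for 14 members (31.1%), beside 15.5% of all genes. Of these 14, 9 were higher in Lhx6-/- tissue, beside 7.85% of all genes, and 5 were lower, beside 7.68%. The median log2 fold change was -0.0033 over the 45 members and -0.0019 over all tested genes, with 21 members on the higher and 24 on the lower side.

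**Figure D2:**
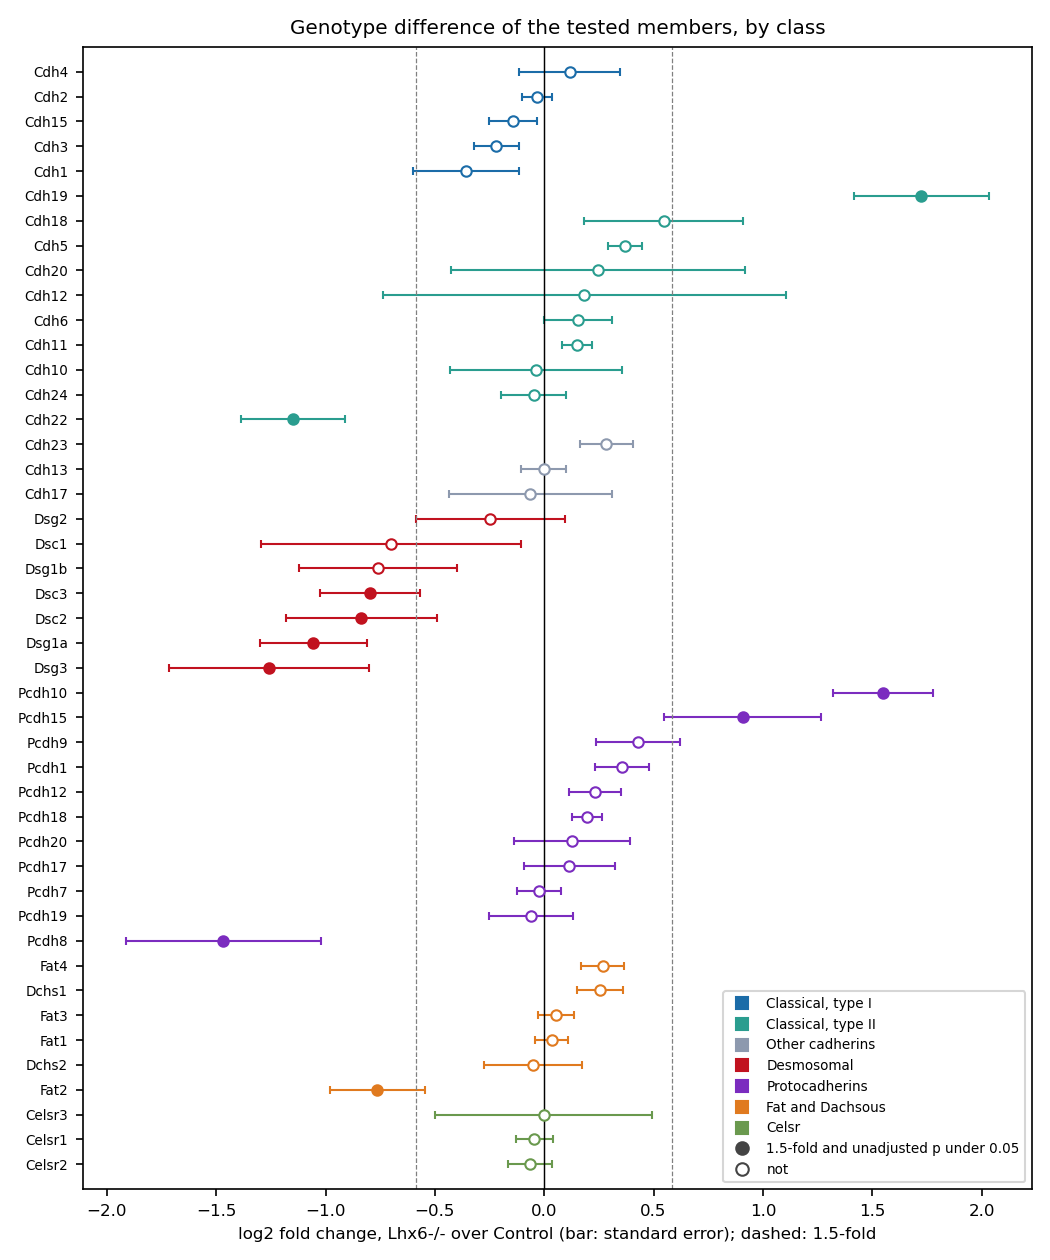
Log2 fold change of Lhx6-/- over control for the 45 tested members, grouped and coloured by class, with bars for the standard error from edgeR and dashed lines at 1.5-fold; filled points met the rule of 1.5-fold and unadjusted p under 0.05. All 7 desmosomal members lie left of 0, the 3 Celsr genes lie near 0, and the protocadherins hold both the highest member but 1, Pcdh10 at 1.55, and the lowest, Pcdh8 at -1.47.

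Type I classical cadherins are the main proteins of adherens junctions, and none of the 5 met the rule. Cdh2, the N-cadherin of mesenchyme and odontoblasts, was at 207, 214 and 210.1 CPM in the control and 198, 207 and 212 CPM in the Lhx6-/- libraries. The genotypes interleaved, with a difference of -0.03 on the log2 scale (standard error 0.07, adjusted p = 0.938). Cdh1, the epithelial E-cadherin, was at 40.2, 61.01 and 42.6 CPM in the control and 27.1, 39.5 and 45.5 CPM in the Lhx6-/- libraries (log2 fold change -0.36, adjusted p = 0.726), and Cdh3, the P-cadherin of basal epithelium, at 43.6, 53.6 and 45.6 CPM in the control and 35.7, 41.8 and 45.1 CPM in the Lhx6-/- libraries (log2 fold change -0.22, adjusted p = 0.518). For both, control replicate 2 was the highest library and the genotypes overlapped. Cdh15, the M-cadherin of muscle satellite cells (19.5 to 25.7 CPM), and Cdh4, R-cadherin (1.95 to 2.47 CPM), also overlapped, with adjusted p = 0.752 and adjusted p = 0.933.

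Type II classical cadherins are used in combinations that sort cells. Of the 10 tested, Cdh19 was higher and Cdh22 lower by the rule, beside 1.58% and 1.71% of all tested genes in those directions. Cdh19, known from glial and Schwann precursor cells, lies at chr1:110888326-110977584 on the minus strand of mm10 and was at 0.562, 0.763 and 0.575 CPM across control replicates 1 to 3 and 2.42, 2.09 and 1.79 CPM across Lhx6-/- replicates 1 to 3. The lowest Lhx6-/- library was more than double the highest control library, although the gene was weak in both. The mean was 0.633 ± 0.113 CPM in control and 2.101 ± 0.318 CPM in Lhx6-/- tissue (SD, n = 3 libraries each). The level fitted by edgeR was 3.304-fold that of control. The test put Cdh19 higher by 1.72 on the log2 scale, with a standard error of 0.31 and adjusted p = 0.0377. It met the fold and p rule in all 17 alternative fits, with an adjusted p from 0.000194 to 0.2704, and leaving out any of the 6 libraries took the adjusted p above 0.05 (0.0528 to 0.1996).

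Schwann cell genes were read beside Cdh19. Of 9 such markers, 8 had a positive log2 difference and 1, Foxd3, met the rule, beside 3.28% of all tested genes. Foxd3 was at 0.819, 1.74 and 0.947 CPM in the control and 2.799, 2.001 and 3.04 CPM in the Lhx6-/- libraries (log2 fold change 1.16, adjusted p = 0.233). Sox10, which marks the whole glial lineage, was at 6.94, 7.95 and 8.403 CPM in the control and 14.9, 6.902 and 13.1 CPM in the Lhx6-/- libraries, and none of the 9 was at 0. Their summed level was 280 to 693 CPM in the control and 307 to 704 CPM in the Lhx6-/- libraries, so the genotypes overlapped. The part of Schwann cell content in the Cdh19 difference was not tested.

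Cdh7 is the protein-coding neighbour of Cdh19 on chromosome 1, with 748 kb and no other protein-coding gene between them, and its reads came from control libraries at a far lower level. It had counts of 13, 7 and 9 in control libraries and 0, 0 and 0 in Lhx6-/- libraries. Every count of this gene thus came from a control library. The table holds only genes that reach 10 in some library, and Cdh7 did so in control replicate 1 alone. It thus entered through the group in which it was higher, and no fold change is drawn from these counts. It was too low for the filter and had no place in the main test. A fit without the filter also covered Cdh7, but the way the gene entered the table favoured a call, so no result is drawn from it.

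Cdh22, a type II cadherin best known from the brain, lies at chr2:165111507-165234853 on the minus strand and was at 5.49, 3.37 and 4.14 CPM across control replicates 1 to 3 and 2.29, 1.83 and 1.75 CPM across Lhx6-/- replicates 1 to 3. The genotypes did not overlap, with control replicate 1 the highest. The difference did not pass adjustment over all genes (log2 fold change -1.15, standard error 0.24, adjusted p = 0.0825). It met the rule in 16 of 17 alternatives, the exception being the fit with the Y-linked level as a covariate (log2 fold change -0.67, adjusted p = 0.357).

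The endothelial member Cdh5 was higher in every Lhx6-/- library without reaching 1.5-fold. It was at 82.7, 86.1 and 88.8 CPM in the control and 122, 109 and 102 CPM in the Lhx6-/- libraries. The spread within each genotype was small, which gave log2 fold change 0.37, standard error 0.08, adjusted p = 0.08498. Pcdh12, the other cadherin of endothelial junctions, was at 9.94, 11.1 and 12.97 CPM in the control and 13.4, 13.3 and 13.3 CPM in the Lhx6-/- libraries (log2 fold change 0.23, adjusted p = 0.579). All 7 endothelial markers had a positive difference and none was at 0. Their summed level was 258 to 259 CPM in control and 278 to 321 CPM in Lhx6-/- tissue. For 4 of the 7 the libraries did not overlap, beside 7.85% of all genes in that direction. Kdr (log2 fold change 0.03), Emcn (0.09) and Egfl7 (0.13) overlapped. Of these 7, Cldn5 met the rule, beside 1.58% of all tested genes in that direction. It was at 13.6, 15.6 and 15.00 CPM in the control and 24.01, 22.8 and 21.8 CPM in the Lhx6-/- libraries (log2 fold change 0.64, standard error 0.09, adjusted p = 0.01399). The part of vessel content in the Cdh5 and Pcdh12 values was not tested.

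Cdh11, among the most abundant members, was at 230.3, 237 and 232 CPM in the control and 255, 270.5 and 251 CPM in the Lhx6-/- libraries. The libraries did not overlap, but the difference was 0.15 on the log2 scale with adjusted p = 0.513, and its unadjusted p did not pass 0.05. The remaining type II members overlapped between genotypes, with adjusted p from 0.711 to 0.989. Cdh6 (6.797 to 9.82 CPM) and Cdh24 (7.78 to 10.7 CPM) were at intermediate levels, and Cdh18 (0.778 to 1.96 CPM), Cdh10 (0.638 to 0.859 CPM), Cdh20 (0.152 to 0.426 CPM) and Cdh12 (0.0403 to 0.299 CPM) were low. Cdh8 had counts of 5, 3 and 0 in control libraries and 7, 5 and 20 in Lhx6-/- libraries, 20 of them in a single Lhx6-/- library. Of the cadherins outside these types, GPI-anchored Cdh13 (29.1 to 38.4 CPM, adjusted p = 0.995) and Cdh17 (0.739 to 1.83 CPM, adjusted p = 0.9796) overlapped, and Cdh26 had 1 to 12 counts per library.

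**Figure D3:**
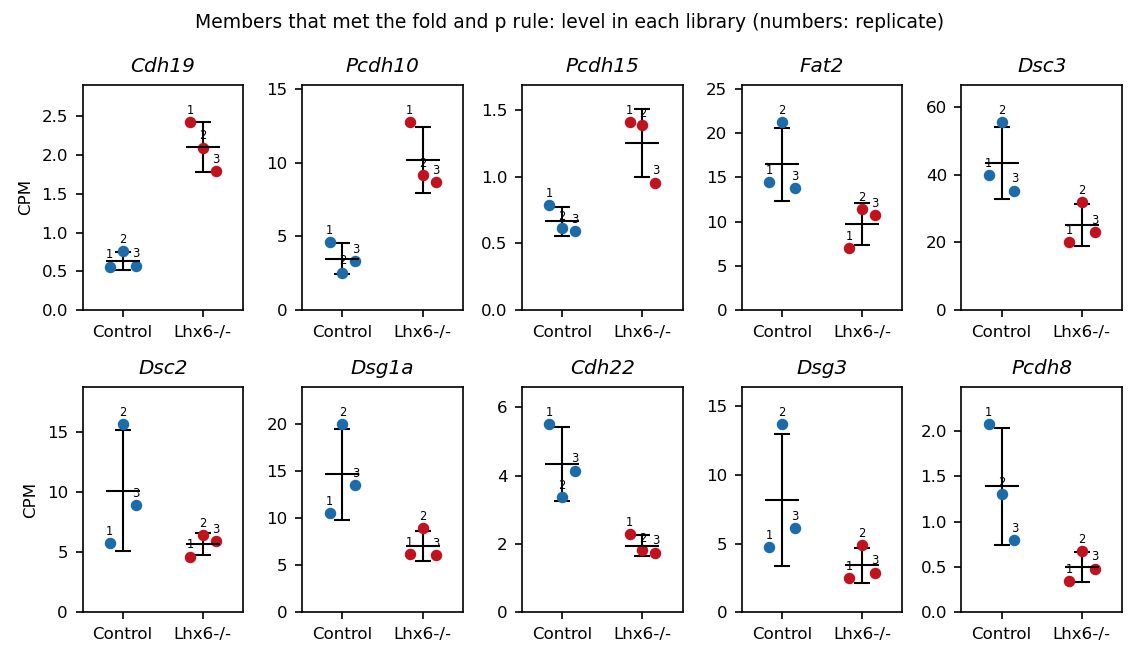
Level in CPM of the 10 members that met the rule, with each library as a point numbered by replicate, a bar for the mean and whiskers for the SD of 3 libraries; each panel has its own axis from 0. The genotypes are apart in 8 panels and overlap for Dsc2 and Dsg3, in which control replicate 2 is the highest library at 15.7 and 13.6 CPM.

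Of the 7 tested desmosomal cadherins, 4 were lower in Lhx6-/- tissue by the rule, beside 1.71% of all tested genes in that direction. All 7 had a negative log2 fold change, with a median of -0.80. The 8 desmosomal genes of the table lie in 1 cluster on chromosome 18, in the order Dsc3, Dsc2, Dsc1, Dsg1c, Dsg1a, Dsg1b, Dsg3 and Dsg2, at chr18:19960930-20604521. The annotation has 1 other protein-coding gene among them, between Dsg1b and Dsg3. They share a locus and are not independent measurements.

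Dsc3, a desmocollin of basal stratified epithelium, was the most abundant of them at 39.9, 55.5 and 35.2 CPM across control replicates 1 to 3 and 20.1, 31.9 and 23.1 CPM across Lhx6-/- replicates 1 to 3. Every Lhx6-/- library was below every control library (log2 fold change -0.80, standard error 0.23, adjusted p = 0.316). Dsg1a, a desmoglein of stratified epithelium, was at 10.5, 19.9 and 13.5 CPM across control replicates 1 to 3 and 6.16, 8.89 and 6.06 CPM across Lhx6-/- replicates 1 to 3. The genotypes again did not overlap (log2 fold change -1.06, standard error 0.24, adjusted p = 0.178). Its near-identical neighbour Dsg1b was at 2.42, 5.57 and 3.21 CPM in the control and 1.502, 3.26 and 1.84 CPM in the Lhx6-/- libraries, with overlap and adjusted p = 0.539, and Dsg1c had counts of 1, 7 and 2 in control libraries and 0, 10 and 6 in Lhx6-/- libraries. How the authors' counting shared reads among these 3 copies was not stated, so the value of each is uncertain.

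Dsg3, the desmoglein of basal cells, was at 4.74, 13.6 and 6.14 CPM across control replicates 1 to 3 and 2.49, 4.86 and 2.88 CPM across Lhx6-/- replicates 1 to 3. Lhx6-/- replicate 2 lay above control replicate 1, so the groups overlapped (log2 fold change -1.26, standard error 0.46, adjusted p = 0.445). Dsc2, a widely expressed desmocollin, was at 5.77, 15.7 and 8.96 CPM across control replicates 1 to 3 and 4.65, 6.46 and 5.91 CPM across Lhx6-/- replicates 1 to 3. The overlap was larger here, and control replicate 2 stood apart from the rest (log2 fold change -0.84, standard error 0.34, adjusted p = 0.4897). Dsg2, the desmoglein of simple epithelia, was at 18.5, 32.9 and 14.7 CPM in the control and 14.5, 19.9 and 21.4 CPM in the Lhx6-/- libraries (log2 fold change -0.25, adjusted p = 0.896), and Dsc1, a desmocollin of suprabasal cells, at 1.35, 2.200 and 2.49 CPM in the control and 1.98, 1.48 and 0.269 CPM in the Lhx6-/- libraries (log2 fold change -0.70, adjusted p = 0.791).

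Dental epithelium markers were read beside these values. All 8 epithelial markers reported here had a negative difference and 3 met the rule, beside 1.71% of all tested genes in that direction. Krt17 was at 118, 193 and 123 CPM in the control and 65.98, 74.1 and 73.1 CPM in the Lhx6-/- libraries (log2 fold change -1.03, adjusted p = 0.154), Krt5 at 460.2, 744 and 508 CPM in the control and 319, 340.0 and 379.6 CPM in the Lhx6-/- libraries (log2 fold change -0.72, adjusted p = 0.214), and Krt14 had log2 fold change -0.62, adjusted p = 0.116. Epcam, by contrast, was at 6.02, 8.92 and 6.104 CPM in the control and 7.104, 7.55 and 5.36 CPM in the Lhx6-/- libraries (log2 fold change -0.07, adjusted p = 0.952), and none of the 8 was at 0. Control replicate 2 was the highest library for 6 of the 7 desmosomal members, for Cdh1, Cdh3 and Fat2, and for all 8 of these markers. Of the 6 ameloblast genes, 5 had a negative difference and none met the rule. Amtn was lower without overlap but under 1.5-fold (log2 fold change -0.54, adjusted p = 0.0210). The other ameloblast genes overlapped, among them Amelx (-0.12) and Enam (0.02). Fewer epithelial cells in the captured tissue and less RNA per epithelial cell cannot be told apart in these bulk samples.

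The epithelial level differs between the genotypes, so as a covariate it shares its signal with genotype. With this level of each library as a covariate, none of the desmosomal members met the rule. The log2 fold change was then -0.35 for Dsc3 (adjusted p = 0.779), -0.41 for Dsg1a (adjusted p = 0.731), -0.10 for Dsg3 (adjusted p = 0.9699) and 0.13 for Dsc2 (adjusted p = 0.962), the last with the opposite sign. Without control replicate 2, Dsg1a (-0.77, adjusted p = 0.168) and Dsg3 (-0.67, adjusted p = 0.5202) met the rule, while Dsc3 (-0.58, adjusted p = 0.425) and Dsc2 (-0.37, adjusted p = 0.685) did not. Dsg3 (-1.08, adjusted p = 0.786) and Dsc2 (-0.71, adjusted p = 0.8101) also missed it without Lhx6-/- replicate 1, as did Dsc3 (-0.74, adjusted p = 0.501), Dsg3 (-1.15, adjusted p = 0.616) and Dsc2 (-0.87, adjusted p = 0.616) without Lhx6-/- replicate 3. Leaving out control replicate 3 (-0.92, adjusted p = 0.656) or Lhx6-/- replicate 2 (-0.94, adjusted p = 0.7698) ended the call of Dsc2 alone among the desmosomal members.

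**Figure D4:**
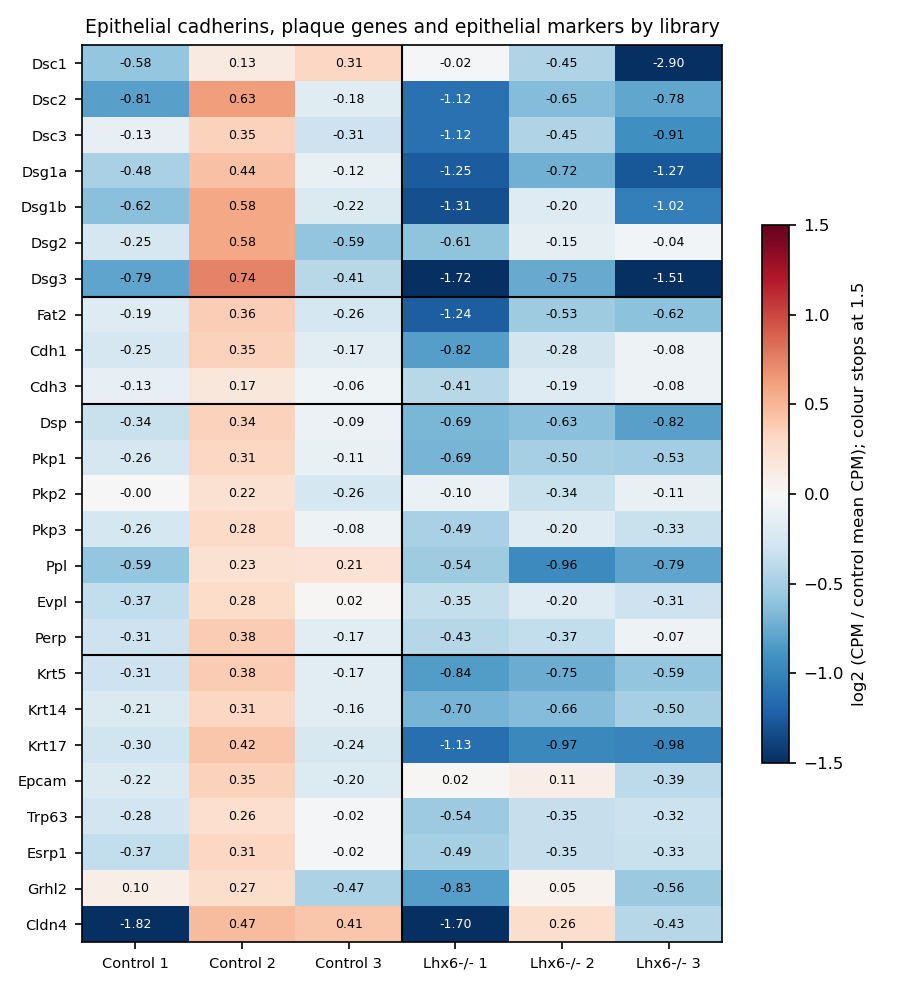
Log2 ratio of CPM to the control mean in each of the 6 libraries for the 7 tested desmosomal cadherins, for Fat2, Cdh1 and Cdh3, for 7 desmosomal plaque genes and for 8 dental epithelium markers, with the colour scale ending at 1.5 in either direction. Control 2 is above the control mean in every row, and the 3 Lhx6-/- columns are blue for most rows, with Epcam, Pkp2 and Cdh3 among the palest.

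Protocadherins included the member with the smallest p and the member with the lowest fold. Pcdh10, a delta-type protocadherin that recruits the WAVE actin regulators during cell migration, lies at chr3:45378398-45435623 on the plus strand and was at 4.61, 2.54 and 3.31 CPM across control replicates 1 to 3 and 12.8, 9.17 and 8.68 CPM across Lhx6-/- replicates 1 to 3. The lowest Lhx6-/- library stood well above the highest control library. The mean was 3.49 ± 1.04 CPM in control and 10.2 ± 2.23 CPM in Lhx6-/- tissue (SD, n = 3 libraries each). The level fitted by edgeR was 2.92-fold that of control. The test put Pcdh10 higher by 1.55 on the log2 scale, with a standard error of 0.23 and adjusted p = 0.0178. It met the rule in all 17 alternatives, with a log2 fold change from 1.004 to 2.17. The adjusted p ranged from 2.14e-08 to 0.125 and was under 0.05 in 13 of them, but not with the epithelial covariate (0.125) or without control replicate 3 (0.122), Lhx6-/- replicate 1 (0.0804) or Lhx6-/- replicate 2 (0.0657).

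Pcdh8, a protocadherin of the same delta-2 branch known from the paraxial mesoderm and from synapses, went the other way. It lies at chr14:79766775-79771312 on the minus strand and was at 2.07, 1.302 and 0.795 CPM across control replicates 1 to 3 and 0.344, 0.671 and 0.484 CPM across Lhx6-/- replicates 1 to 3. The mutant libraries were all under the control libraries, though control replicate 3 was close to Lhx6-/- replicate 2. The difference did not pass adjustment (log2 fold change -1.47, standard error 0.45, adjusted p = 0.264), and it missed the rule when control replicate 1, its highest library, was left out (log2 fold change -1.06, adjusted p = 0.419).

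Because Pcdh10 and Pcdh8 moved in opposite directions, the sequences just before their starts are shown side by side. Each is the 250 bases upstream of the RefSeq start on GRCm38.p6, 5′ to 3′ on the strand of the gene, chr3:45378148-45378397 (plus strand) and chr14:79771313-79771562 (minus strand). Capitals mark exact matches to TATAAA, a core promoter element, or to CCAAT on either strand, where the reverse strand reads ATTGG.
Pcdh10: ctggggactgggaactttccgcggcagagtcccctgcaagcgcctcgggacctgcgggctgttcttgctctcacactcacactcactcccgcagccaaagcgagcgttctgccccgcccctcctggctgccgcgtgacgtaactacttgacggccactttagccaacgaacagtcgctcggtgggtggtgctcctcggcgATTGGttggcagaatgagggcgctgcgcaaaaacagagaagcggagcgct
Pcdh8: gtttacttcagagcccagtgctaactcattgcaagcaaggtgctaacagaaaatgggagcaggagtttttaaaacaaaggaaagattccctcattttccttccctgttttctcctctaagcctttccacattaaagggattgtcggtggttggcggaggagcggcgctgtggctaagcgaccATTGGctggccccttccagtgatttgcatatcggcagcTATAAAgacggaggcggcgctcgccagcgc

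The Pcdh8 window held TATAAA with its first base 30 bases upstream of the start and an inverted CCAAT with its first base 68 bases upstream, and these matches did not overlap. The Pcdh10 window held an inverted CCAAT 50 bases upstream and no TATAAA, and its GC content was 63.2%, against 51.2% for Pcdh8 and a median of 52.4% over all windows. Over all 32851 RefSeq windows of this length, searched on both strands, 12.4% held TATAAA and 33.8% held CCAAT. Among 31 windows from 28 members, 14 held CCAAT and 2 held TATAAA, those of Pcdh8 and Pcdh15. Pcdh15, unlike Pcdh8, was higher in Lhx6-/- tissue (log2 fold change 0.91). Neither window held TAATTA, the core bound by LIM homeodomain factors, which occurred in 4.84% of all windows and in 1 of 31 windows from 28 members, that of Cdh7. CACCTG, the E-box read by Snail and Zeb repressors, was in 5 of the 31 member windows and in 17.2% of all windows. A match here is a string of letters and not a measured binding site.

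Pcdh15, a protocadherin of the hair cell tip link, lies at chr10:73099342-74649737 and was at 0.787, 0.614 and 0.592 CPM across control replicates 1 to 3 and 1.41, 1.38 and 0.954 CPM across Lhx6-/- replicates 1 to 3. All Lhx6-/- libraries were above all control libraries, at levels near 1 CPM (log2 fold change 0.91, standard error 0.36, adjusted p = 0.425). It missed the rule in 6 of 17 alternatives, namely both covariates and the fits without control replicates 2 or 3 or without Lhx6-/- replicates 1 or 2. Cdh23, its binding partner in the tip link, was at 21.8, 15.8 and 19.99 CPM in the control and 25.4, 23.4 and 21.3 CPM in the Lhx6-/- libraries, with 1 control library inside the Lhx6-/- range (log2 fold change 0.28, adjusted p = 0.473).

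The remaining protocadherins differed by less than 1.5-fold. Pcdh18, the most abundant of the class per kb and a mesenchymal protocadherin, was at 50.2, 46.8 and 50.5 CPM in the control and 56.1, 55.04 and 57.5 CPM in the Lhx6-/- libraries, without overlap (log2 fold change 0.19, standard error 0.07, adjusted p = 0.352). Pcdh1, an epithelial and vascular protocadherin, was at 16.5, 17.7 and 18.5 CPM in the control and 27.04, 18.99 and 21.4 CPM in the Lhx6-/- libraries, also without overlap (log2 fold change 0.35, standard error 0.12, adjusted p = 0.341). Pcdh9 (4.63, 3.56 and 5.19 CPM in the control and 6.79, 6.22 and 4.998 CPM in the Lhx6-/- libraries) overlapped, with log2 fold change 0.43, adjusted p = 0.495. Pcdh7 at 31.00 to 37.5 CPM, Pcdh17 at 4.16 to 7.07 CPM, Pcdh19 at 2.91 to 3.46 CPM and Pcdh20 at 1.64 to 2.86 CPM overlapped, with adjusted p from 0.924 to 0.971.

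Among the polarity cadherins, Fat2 was lower in Lhx6-/- tissue and Fat4 and Dchs1 had positive differences under 1.5-fold. Fat2, an atypical cadherin of migrating epithelia, lies at chr11:55250609-55336564 and was at 14.5, 21.2 and 13.8 CPM across control replicates 1 to 3 and 6.97, 11.4 and 10.7 CPM across Lhx6-/- replicates 1 to 3. The genotypes did not overlap (log2 fold change -0.76, standard error 0.22, adjusted p = 0.265). Like the desmosomal genes it peaked in control replicate 2, and it missed the rule without that library (log2 fold change -0.54, adjusted p = 0.398), without Lhx6-/- replicate 1 (-0.58, adjusted p = 0.507) and with the epithelial covariate (-0.26, adjusted p = 0.873).

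Fat4, the receptor of Dachsous in mesenchyme, was at 74.8, 55.9 and 68.5 CPM in the control and 83.9, 76.1 and 79.7 CPM in the Lhx6-/- libraries. The libraries did not overlap and the difference was under 1.5-fold (log2 fold change 0.27, standard error 0.10, adjusted p = 0.378). Dchs1, its ligand, was at 111, 82.4 and 101 CPM in the control and 128, 113 and 111 CPM in the Lhx6-/- libraries, where the highest control library equalled the lowest mutant library within rounding (log2 fold change 0.26, adjusted p = 0.453). For both, control replicate 2 was the lowest library, and with the epithelial covariate the log2 fold change of Fat4 was 0.02 (adjusted p = 0.987).

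Fat1 was at 448, 428 and 475 CPM in the control and 480.0, 460.1 and 443 CPM in the Lhx6-/- libraries (log2 fold change 0.03, adjusted p = 0.942), Fat3 at 99.3, 81.3 and 98.7 CPM in the control and 94.9, 98.9 and 96.1 CPM in the Lhx6-/- libraries (log2 fold change 0.05, adjusted p = 0.905), and Dchs2 ran from 2.21 to 3.102 CPM (log2 fold change -0.05, adjusted p = 0.973). None of these 3 separated the genotypes. The flamingo cadherins, which bridge neighbouring cells in planar polarity, were likewise interleaved. Celsr1 was at 161, 170.1 and 172 CPM in the control and 156, 148 and 183 CPM in the Lhx6-/- libraries (log2 fold change -0.05, adjusted p = 0.927), Celsr2 at 51.6, 67.9 and 54.01 CPM in the control and 52.3, 55.01 and 58.6 CPM in the Lhx6-/- libraries (log2 fold change -0.06, adjusted p = 0.908), and Celsr3 between 0.338 and 0.771 CPM (log2 fold change -0.00, adjusted p = 0.998). The standard errors were 0.09 for Celsr1, 0.10 for Celsr2 and 0.50 for Celsr3.

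The genes that work with these cadherins were read from lists of 60 tested genes, of which 4 met the rule (6.67%, beside 3.28% of all tested genes) and 14 had an unadjusted p under 0.05, beside 9.81% of all tested genes. In the edgeR test as reported and with limma voom, 0 of them had an adjusted p under 0.05. That count was 6 with DESeq2 (Clstn3, Ctnnd2, Dsp, Nectin4, Pkp1 and Ppl), 6 with the Y-linked covariate (Dsp, Nectin4, Perp, Pkp1, Pkp3 and Snai1), 2 with the replicate block (Dsp and Pkp1), 3 without control replicate 1 (Dsp, Pkp1 and Ppl), 1 without control replicate 2 (Dsp) and 0 in the other alternatives. The desmosomal plaque held 2 of the 4. Dsp, desmoplakin, was at 121, 194 and 144 CPM across control replicates 1 to 3 and 94.6, 98.8 and 86.6 CPM across Lhx6-/- replicates 1 to 3 (log2 fold change -0.71, standard error 0.16, adjusted p = 0.179), and all Lhx6-/- libraries were below all control libraries. Ppl, periplakin, was at 11.9, 20.98 and 20.7 CPM in the control and 12.3, 9.21 and 10.3 CPM in the Lhx6-/- libraries, with control replicate 1 among the mutant values (log2 fold change -0.75, standard error 0.21, adjusted p = 0.264). All 7 plaque genes had a negative difference, with a median of -0.34. Pkp1, plakophilin 1, was at 94.6, 139.7 and 105 CPM in the control and 69.8, 80.1 and 78.4 CPM in the Lhx6-/- libraries without overlap but under 1.5-fold (log2 fold change -0.57, adjusted p = 0.178), and Perp, the most abundant per kb, had log2 fold change -0.28, adjusted p = 0.728. With the epithelial covariate the difference was -0.33 for Dsp (adjusted p = 0.637) and -0.50 for Ppl (adjusted p = 0.873).

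Of 15 catenin and nectin genes, which link classical cadherins and nectins to actin, 1 met the rule (6.67%, beside 3.28% of all tested genes). Ctnnb1, beta-catenin, was at 523, 570.0 and 532 CPM in the control and 523, 552 and 528 CPM in the Lhx6-/- libraries (log2 fold change -0.02, adjusted p = 0.968), Ctnna1, alpha-catenin, at 135, 144 and 141 CPM in the control and 145, 137 and 140.5 CPM in the Lhx6-/- libraries (log2 fold change 0.00, adjusted p = 0.991), and Ctnna2, its neural form, had log2 fold change -0.17, adjusted p = 0.841. The member that met the rule was Nectin4, a nectin of epithelia, at 12.8, 23.8 and 14.1 CPM in the control and 9.67, 11.1 and 10.7 CPM in the Lhx6-/- libraries (log2 fold change -0.68, adjusted p = 0.316). Jup, plakoglobin, which serves both junction types, was at 72.1, 86.1 and 82.2 CPM in the control and 65.4, 68.00 and 66.3 CPM in the Lhx6-/- libraries, without overlap (log2 fold change -0.27, adjusted p = 0.235). Ctnnd2, delta-2 catenin, was at 11.9, 13.98 and 12.5 CPM in the control and 7.84, 9.75 and 9.18 CPM in the Lhx6-/- libraries, also without overlap and under 1.5-fold (log2 fold change -0.52, adjusted p = 0.148).

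None of the 14 planar polarity partners met the rule, and 2 had an unadjusted p under 0.05, beside 9.81% of all tested genes. Ptk7 was at 171 to 189 CPM, Vangl2 at 70.02 to 95.2 CPM and Dvl1 at 55.1 to 65.7 CPM. Fjx1, a Golgi-resident member of the four-jointed family that modifies Fat signalling in flies, was at 20.5, 17.6 and 18.6 CPM in the control and 16.8, 16.1 and 16.2 CPM in the Lhx6-/- libraries (log2 fold change -0.21, adjusted p = 0.509), and Prickle2 at 16.9, 15.5 and 15.7 CPM in the control and 17.97, 19.9 and 19.1 CPM in the Lhx6-/- libraries (log2 fold change 0.25, adjusted p = 0.399). None of 4 cleavage enzymes that shed cadherin ectodomains or cut their stubs (Adam10, Adam15, Psen2, Ncstn) met the rule or had an unadjusted p under 0.05, and the same held for the 7 WAVE complex genes that act downstream of Pcdh10.

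Of 5 transcriptional repressors of Cdh1, none met the rule and 3 had an unadjusted p under 0.05, beside 9.81% of all tested genes. Snai1 was at 35.3, 28.3 and 32.8 CPM in the control and 43.3, 41.4 and 38.1 CPM in the Lhx6-/- libraries (log2 fold change 0.35, standard error 0.09, adjusted p = 0.207), Twist1 at 28.8, 29.3 and 27.8 CPM in the control and 34.7, 30.7 and 32.6 CPM in the Lhx6-/- libraries (log2 fold change 0.19, adjusted p = 0.472) and Zeb1 at 33.7, 29.4 and 36.2 CPM in the control and 37.1, 37.9 and 38.2 CPM in the Lhx6-/- libraries (log2 fold change 0.19, adjusted p = 0.509), each higher without overlap, beside 7.85% of all genes in that direction, while Snai2 had log2 fold change -0.02, adjusted p = 0.9801 and Zeb2 log2 fold change 0.06, adjusted p = 0.878. Beside them, the mesenchymal marker Pdgfra was at 207, 185 and 192 CPM in the control and 225, 243 and 231 CPM in the Lhx6-/- libraries (log2 fold change 0.26, adjusted p = 0.229). All 8 mesenchymal markers had a positive difference, none met the rule and none was at 0. The libraries did not overlap for 4 of the 8, Prrx1, Pax9, Vim and Pdgfra, all higher in Lhx6-/- tissue, and of these Prrx1, Pax9 and Pdgfra had an unadjusted p under 0.05. Pax9 was at 21.03, 16.4 and 20.2 CPM in the control and 29.1, 28.4 and 24.5 CPM in the Lhx6-/- libraries (log2 fold change 0.51, adjusted p = 0.102). The summed level of the 8 overlapped (66392 to 86922 CPM in control, 78601 to 85823 CPM in Lhx6-/- tissue), but Col1a1 alone made up 64844 to 85297 CPM of it. The part of tissue composition in these values was not tested.

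Of 7 cadherin-like genes outside the naming rule, Clstn3, a calsyntenin with cadherin repeats, met the fold and p rule, beside 3.28% of all tested genes. Clstn3 was at 4.69, 4.65 and 3.87 CPM in the control and 7.398, 6.11 and 7.65 CPM in the Lhx6-/- libraries. Every Lhx6-/- library was above every control library (log2 fold change 0.68, standard error 0.17, adjusted p = 0.153), and it met the rule in all 17 alternatives. Clstn1 was at 242 to 289 CPM (log2 fold change -0.01, adjusted p = 0.989) and Clstn2 at 2.89 to 5.66 CPM (log2 fold change -0.29, adjusted p = 0.761).

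The 10 members differed in how often they met the rule over the alternatives. Pcdh10 and Cdh19 met the rule in 17 of 17 alternatives, Cdh22, Pcdh8 and Dsg1a in 16, Dsc3 and Fat2 in 14, Dsg3 in 13, Pcdh15 in 11 and Dsc2 in 7. With the epithelial covariate, Pcdh10, Cdh19, Cdh22 and Pcdh8 still met it, with log2 fold changes of 1.004, 1.88, -1.58 and -1.52. The annotated genes Gm38255 and Gm36944 overlap Cdh19 on its own strand. Annotated antisense genes overlap Pcdh10, Pcdh8 and Cdh22, and processed pseudogenes lie within Pcdh15. Whether the counting used strand was not stated, so reads of each gene and of the antisense gene cannot be told apart.

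**Figure D5:**
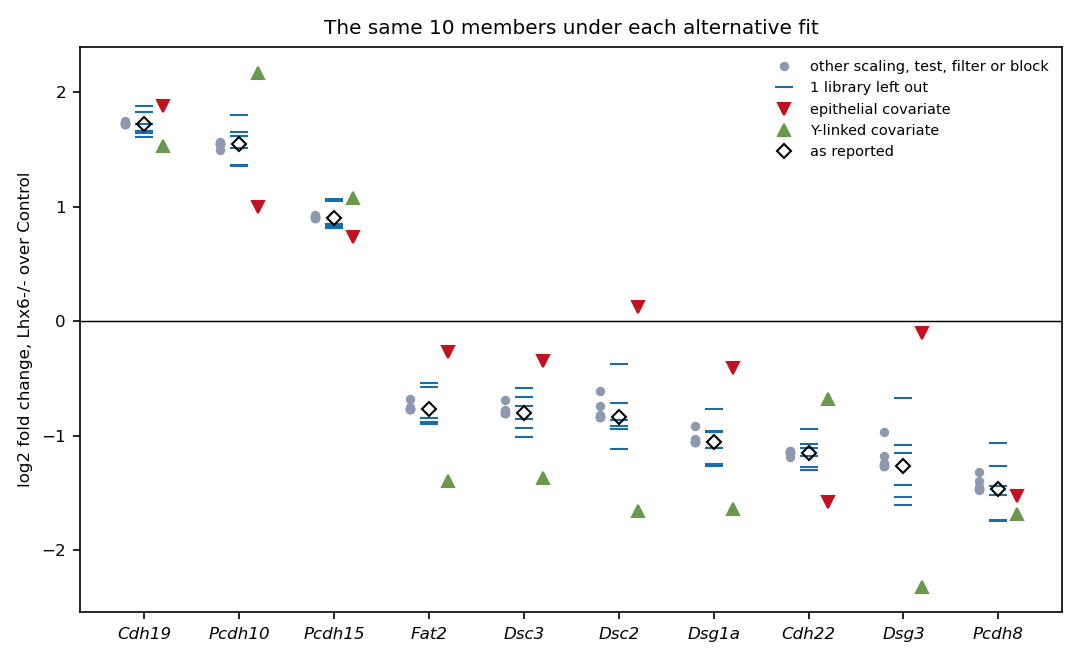
Log2 fold change of Lhx6-/- over control for the 10 members that met the rule, as reported (diamonds), with 1 library left out (dashes), with another scaling, test, filter or block (grey circles) and with the epithelial or Y-linked level as a covariate (triangles down and up). The epithelial covariate brings Dsc2, Dsg3, Fat2, Dsc3 and Dsg1a to between -0.41 and 0.13, and leaves Cdh19 at 1.88 and Pcdh10 at 1.004.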

How the data were processed

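RNA of 3 control and 3 Lhx6-/- libraries was sequenced by the authors, single-end, trimmed, aligned to mm10 with STAR 2.6.1d and quantified per gene in Partek. The deposited table holds estimated counts without normalization for 23594 genes, each of which reaches 10 in some library. Gene names come from the authors' comparison table, which also holds means, ratios, fold changes and p-values of their own test that were not used. A deposited column of that table, a score that the authors made by summing 1 + counts per 1000000 over the libraries, fixed the row order (largest relative deviation 3.04e-08). The paper's methods name RPKM, which these values are not. Samples were grouped by the genotype in the labels.

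Estimated counts were rounded and tested with edgeR 4.0.16 in R 4.3.3 (quasi-likelihood, TMM, robust dispersion, edgeR's expression filter, genotype alone, two-sided, all 6 libraries), and p-values were adjusted over 20114 genes. The biological coefficient of variation was 0.202. p and adjusted p in the text are from this test unless another fit is named. CPM use the TMM-scaled totals, and levels per kb use the union of GENCODE vM21 exons. The code was tested on simulated counts. Coordinates are those of the authors' table on mm10, 1-based, and promoter windows are from RefSeq (GRCm38.p6), which held 28 of the members.

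Members and gene lists were chosen with earlier results of these data known, and some tests repeat choices of an earlier analysis of the same data. Genes named were those meeting the fold and p rule, the 3 highest per kb of each class or list, members of at least 1 CPM whose genotypes did not overlap, and partners of these; other members were given by their range. One dental epithelium marker, which enters the summed epithelial level and the epithelial covariate, and one cleavage enzyme are not reported here singly or in the counts of their lists. The alternatives were 3 other scalings, DESeq2 1.42.0, limma voom (limma 3.58.1), 2 filters on low counts, a non-robust dispersion, the replicate number as a block, 2 covariates and leaving out each library; a 2-fold threshold was tried as well. Figures were drawn with matplotlib 3.10.9. For abundant genes 3 libraries per genotype limit the precision, and for those near 1 CPM counting error does too.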

Additional observations from a re-analysis of the deposited data

How the results depend on the processing

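The number of members meeting the fold and p rule was 10 as reported and 6 at a 2-fold threshold, 4 with the epithelial covariate, 14 with the Y-linked covariate, 11 with DESeq2, 8 with limma voom and 6 to 11 when a library was left out, the lowest value both without control replicate 2 and without Lhx6-/- replicate 1. The number with an adjusted p under 0.05 was 2 as reported, 6 with DESeq2, 1 with limma voom, 9 with the Y-linked covariate, 0 with the epithelial covariate and 0 to 2 when a library was left out; it was 0 without control replicate 3, Lhx6-/- replicate 1 or Lhx6-/- replicate 2, and 1 without control replicate 2 or Lhx6-/- replicate 3. The number of partner genes meeting the rule was 4 as reported, 9 with the Y-linked covariate, 1 with the epithelial covariate and 2 to 6 when a library was left out, the lowest without control replicate 2 and the highest without Lhx6-/- replicate 2. With the Y-linked covariate, Cdh1, Cdh23, Dchs1, Dsg1b, Dsg2 and Pcdh9 met the rule in addition and Cdh22 and Pcdh15 missed it, beside 5.84% of all genes. Dsc2 changed direction with the epithelial covariate, to a log2 fold change of 0.13. The other scalings, filters and dispersion gave 9 or 10 members. The cause of these differences was not tested. Leaving out a library changes the number of samples and the set of libraries together. The median log2 fold change of the members moved by less than the SD between control libraries (0.0578) in every alternative run.

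The paper's methods speak of pairs of samples, but which libraries form a pair is not stated. The mutant library names carry other numbers than their titles. Deviations of libraries with the same title number correlated at 0.0256, -0.0288 and -0.0314. Those of the other combinations ran from -0.0639 to 0.0951. These values cannot show whether or how the libraries were paired, and the replicate block rests on the title numbers alone. With the replicate block, 11 members met the rule, 7 had an adjusted p under 0.05 (Cdh19, Cdh22, Dsc3, Dsg1a, Dsg3, Fat2 and Pcdh10) and 4 partner genes met the rule.

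Depth limited Cdh7, Cdh8, Cdh26 and Dsg1c, which had at most 20 counts in any library. The epithelial and Y-linked levels differ between the genotypes, so a covariate shares its signal with genotype in 6 libraries.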
